A study of Homo sapiens with 4 samples.

Results

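Cholesterol and fatty acid synthesis, their control by sterol regulatory element-binding proteins (SREBPs), and cholesterol export were followed through 38 genes in MV4-11, a human line derived from monocytic acute myeloid leukaemia in which KMT2A is fused to AFF1. The genes were chosen by name from these pathways, and where a gene had more than 1 probe set the brightest was to be used. Of the 38 genes, 34 had a probe set of their own, 3 (CYP51A1, FADS1 and NPC2) had a probe set that the platform annotation also gives to another symbol, and FDFT1 was not analysed here. A filter on dim probe sets, which required a signal above the table median of 3.08 log2 units in at least 1 array, was passed by 33 of the 34, with ABCG1 left out. Of the whole series, 17070 protein-coding genes had a probe set of their own and 12521 passed the same filter.

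The study set 3 short hairpin RNAs against RUNX1, a transcription factor needed to form blood cells, beside a control hairpin against luciferase. The RUNX1 hairpins are labelled a moderate knockdown, profound 1 and profound 2. All 4 groups were MV4-11 cells transduced with a hairpin and then kept in 3 µM doxycycline for 24 h, and RNA of each was hybridised to 1 whole-transcript array. The values are log2 signals after robust multi-array averaging (RMA), with array medians between 3.07 and 3.09. With 1 array per hairpin, no difference below has a replicate check, no p-value can be given, and precision is limited by how few arrays there are.

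The RUNX1 probe set, which is shared with LOC100506403, read 4.33 with the moderate hairpin, 4.07 with profound 1 and 4.04 with profound 2, against 4.27 with the control hairpin. The differences were 0.06, -0.19 and -0.22, none beyond the robust SD of 0.23 for genes of this level (the yardstick described below). These arrays alone therefore do not show a knockdown of RUNX1 RNA. Titles and genotypes give RUNX1 as the target throughout, but for the arrays labelled profound the description fields give RUNX2 and RUNX3. Arrays are therefore called by their labels. All 7 measured myeloid and leukaemia markers, among them FLT3, LYZ and CD68, lay above the table median on every array. Of the hepatocyte markers, ALB lay at or under 2.87 on all arrays, while TTR (3.57 to 3.87) and SERPINA1 (3.18 to 3.66) were above the table median on every array. Above it on every array were also 0 of 3 adipocyte, 0 of 2 erythroid, 1 of 3 B cell, 1 of 4 T and NK cell, 1 of 3 fibroblast and 1 of 3 epithelial markers.

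As a yardstick for single genes, moderate minus control was summarised by its robust SD (from the median absolute deviation) in 6 classes of mean level. It ran from 0.25 log2 units for the dimmest class to 0.11 for the brightest, with noise and real differences mixed in it. For all tested genes together it was 0.17, and the corresponding values for profound 1 and profound 2 were 0.26 and 0.19. A gene is called higher or lower at 1.5-fold (0.585 log2 units), and counts at a smaller size of 0.32 log2 units are given too. Because fewer cells of a kind and less RNA per cell give the same bulk signal, they cannot be told apart in any value below.

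Cholesterol is built from acetyl-CoA through mevalonate and isoprenoid units to squalene, and squalene is closed and trimmed to cholesterol in the endoplasmic reticulum. When sterols run low, SCAP carries the SREBPs to the Golgi apparatus for cleavage, and their released parts switch on sterol and fatty acid enzymes. INSIG proteins hold SCAP back when sterols are plentiful. Liver X receptors (LXRs) are activated by oxysterols and raise cholesterol exporters such as ABCA1 and ABCG1 and the ubiquitin ligase MYLIP.

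Many synthesis enzymes lay lowest with the hairpin labelled profound 1 and next lowest with profound 2. Of the 17 mevalonate and sterol step genes that passed the filter, 15 read below control in profound 1 and 14 in profound 2, and their median differences were -0.41 and -0.19. In moderate the same genes had a median of -0.00, with 9 of 17 below control. Over all tested genes, 50.5%, 50.3% and 48.1% read below control in profound 1, profound 2 and moderate.

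At 1.5-fold, 6 of the 33 genes were lower than control in profound 1: ACAT2, SQLE, HSD17B7, EBP, SCD and FADS2. The share of all tested genes lower at this size was 4.04%. HSD17B7 passed the filter through the control array alone, so its lower values follow in part from the filter. With the filter on the mean over the arrays, which leaves out HSD17B7, 5 of 32 genes were lower (4.16% of 11879 tested genes). None of the 33 was lower at 1.5-fold in profound 2 (1.01% of all tested genes) or in moderate (0.447%). On the higher side none of the 33 reached 1.5-fold in profound 1 (2.68% of all tested genes), profound 2 (1.20%) or moderate (0.863%). At 0.32 log2 units, 17 of 33 were lower and 1 higher in profound 1 (13.2% and 11.6% of all tested genes), and 5 were lower and 1 higher in profound 2 (6.42% and 7.09%). In moderate, 0 were lower and 1 was higher at this size (4.46% and 5.98%).

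Counted over both profound arrays together, 23 of the 33 genes were below control in both and 5 above it in both (32.7% and 31.9% of all tested genes). At 0.32 log2 units, 4 of 33 were lower in both, MSMO1, HSD17B7, EBP and FADS2, and 0 higher (2.44% and 3.03%). With the filter on the mean, which leaves out HSD17B7, 3 of 32 were lower in both (2.27% of tested genes). At 1.5-fold, 0 were lower or higher in both (0.303% and 0.335%). Against the array labelled moderate, 21 of 33 were lower in both and 6 higher in both (32.9% and 28.6%).

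**Figure D1:**
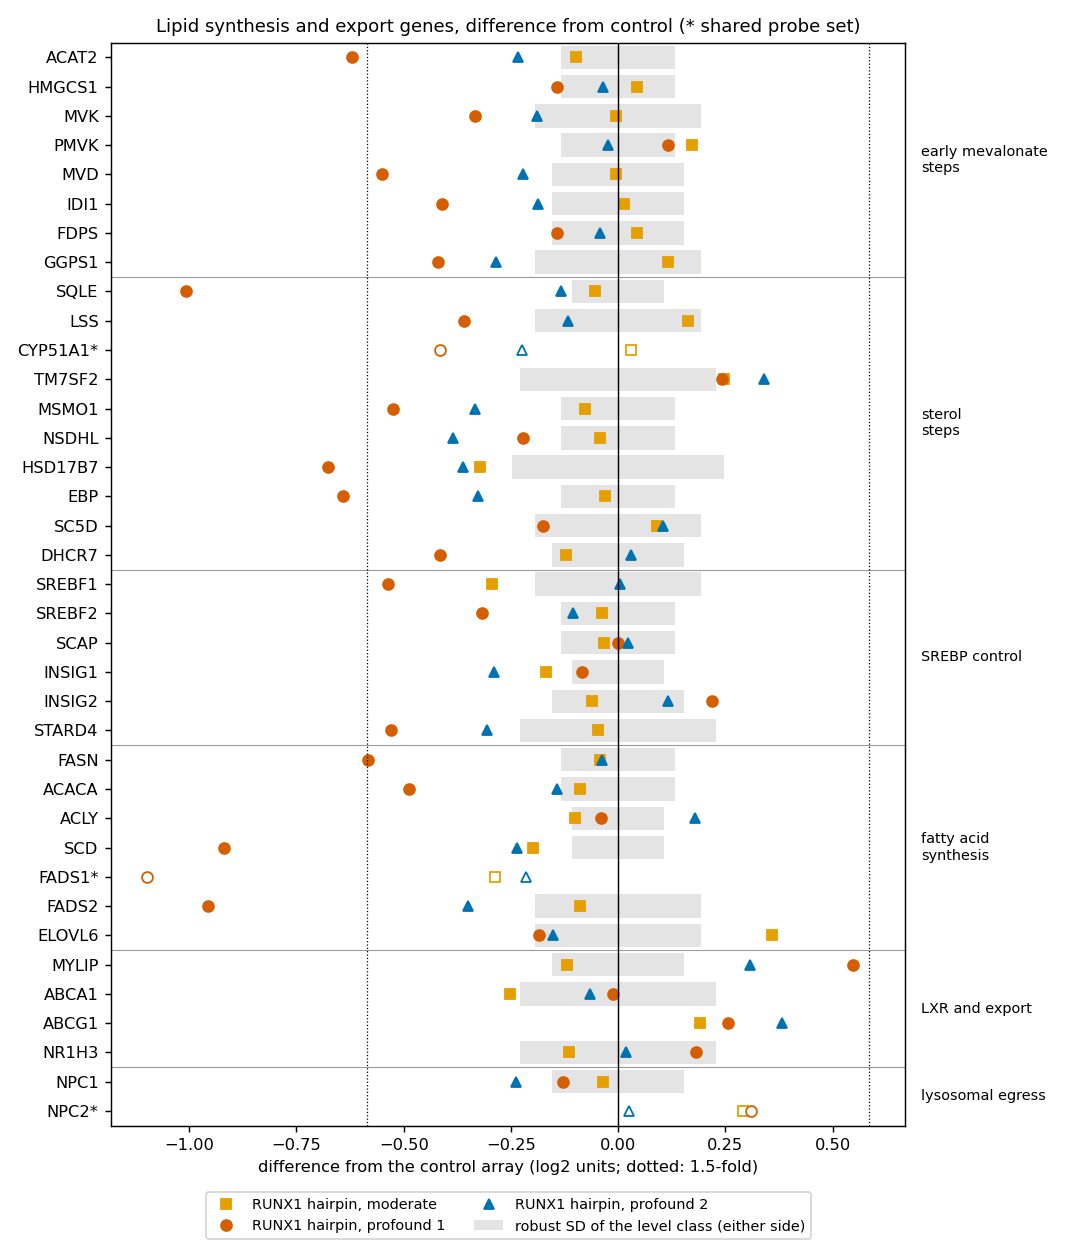
Difference of each RUNX1 hairpin array from the control array in log2 units for 37 genes, 1 row per gene, grouped by role. Squares are moderate, circles profound 1 and triangles profound 2, open symbols are probe sets shared with another symbol, and grey bars span 1 robust SD of the gene's level class on either side of 0 (none for shared probe sets and ABCG1). Circles of the enzyme classes lie mostly left of 0, furthest for SQLE (-1.01), FADS2 (-0.96) and SCD (-0.92) among genes with their own probe set.

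Across the 4 arrays, the order was alike for many synthesis genes. For 18 of the 33 genes profound 1 was the lowest array and profound 2 the next lowest, an order that 12.8% of all tested genes showed (17 of 32 and 13.1% with the filter on the mean). This order was picked out after the values were seen, so its count describes these genes and tests nothing. It held for 7 of 8 early mevalonate genes, 5 of 9 sterol step genes, 4 of 6 fatty acid genes and 2 of 6 SREBP control genes, and for 0 of 3 LXR and export genes. Both profound arrays lay below both others, in either order, for 20 of 33 genes (20.0% of all tested genes), NSDHL and NPC1 being the additional genes. HSD17B7, which passed the filter through the control array alone, is among the 20. Both lay above both others for 4 of 33 (17.6% of all tested genes): SCAP, INSIG2, MYLIP and NR1H3.

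The early mevalonate genes were taken in pathway order. ACAT2, which encodes a cytosolic acetyl-CoA thiolase, read 7.20 with moderate, 6.68 with profound 1 and 7.06 with profound 2, against 7.30 with control. Its difference of -0.62 in profound 1 was 1.54-fold, and that in profound 2 was -0.23, both beyond the robust SD of 0.13 for its level. HMGCS1, the hydroxymethylglutaryl-CoA synthase gene, read 6.88, 6.69 and 6.80 in moderate, profound 1 and profound 2, against 6.84 in control, a spread hardly beyond the robust SD of 0.13.

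MVK, PMVK and MVD act in sequence to turn mevalonate into isopentenyl diphosphate. MVK read 5.18 in moderate, 4.85 in profound 1 and 5.00 in profound 2, against 5.19 in control. MVD, the decarboxylase, read 6.71, 6.16 and 6.49 in the same order, against 6.71 in control, and its differences of -0.55 and -0.22 in the profound arrays both exceeded the robust SD of 0.15. PMVK, the middle kinase, did not share the pattern: it read 6.83, 6.77 and 6.63, against 6.65 in control, and was above control by 0.12 in profound 1.

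Downstream, IDI1, the isopentenyl diphosphate isomerase, read 6.12 in moderate, 5.70 in profound 1 and 5.92 in profound 2, against 6.11 in control. FDPS, the farnesyl diphosphate synthase, differed little: it read 5.81 in profound 1 and 5.92 in profound 2, against 5.96 in control (-0.14 and -0.04), and was above control by 0.04 in moderate. GGPS1, which makes geranylgeranyl diphosphate for protein prenylation, read 5.53, 5.00 and 5.13 against 5.42 in control. GGPS1 was thus low in both profound arrays to a similar degree (-0.42 and -0.28), where its level class had a robust SD of 0.19. FDPS has processed pseudogenes, and whether its probe set distinguishes them was not tested.

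Among sterol step genes SQLE stood furthest from control. SQLE encodes squalene epoxidase, the oxygenase that commits squalene to sterol synthesis. It read 8.05 in moderate, 7.10 in profound 1 and 7.97 in profound 2, against 8.10 in control. The arrays other than profound 1 thus lay close together, and profound 1 was 2.01-fold lower than control (-1.01), a value that only 0.463% of tested genes reached or passed on the lower side. LSS, the next enzyme, which closes squalene epoxide to lanosterol, read 5.77, 5.25 and 5.50 against 5.61 in control, with differences of -0.36 and -0.12 in profound 1 and profound 2.

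The demethylation genes CYP51A1, MSMO1 and NSDHL read below control in both profound arrays. The lanosterol demethylase gene CYP51A1, on a probe set shared with LRRD1, read 7.92 in moderate, 7.48 in profound 1 and 7.67 in profound 2, against 7.89 in control. MSMO1, the C4-methyl sterol oxidase, read 7.19, 6.74 and 6.93 against 7.27 in control, and its differences of -0.53 and -0.34 stood at the 5.26th and 5.77th percentiles of all tested genes in profound 1 and profound 2. NSDHL, the dehydrogenase acting after MSMO1, had the reverse order of the profound arrays, with 7.32 in profound 1 and 7.15 in profound 2, and read 7.50 in moderate and 7.54 in control. Its difference of -0.39 in profound 2 was the furthest below control of any of the 33 genes in that array.

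HSD17B7, the C3-ketoreductase of the same complex, read 2.97 in moderate, 2.62 in profound 1 and 2.94 in profound 2, against 3.30 in control. All 3 RUNX1 hairpin arrays were below the table median, so its difference of -0.68 in profound 1 comes from a dim probe set. The gene also has a closely similar pseudogene, HSD17B7P2, and cross-hybridisation was not tested. EBP, the sterol isomerase, is free of the first limit: it read 6.39 in profound 1 and 6.71 in profound 2, against 7.03 in control, and moderate differed from control by -0.03. EBP was 1.56-fold lower in profound 1, and its differences of -0.64 and -0.33 in the profound arrays stood beside a robust SD of 0.13.

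SC5D and DHCR7, the last enzymes of the route, were not below control in profound 2. SC5D, the sterol C5-desaturase, read 5.63 in moderate, 5.37 in profound 1 and 5.65 in profound 2, against 5.54 in control. DHCR7, which reduces 7-dehydrocholesterol to cholesterol, read 6.04, 5.75 and 6.20 against 6.17 in control. Both were below control in profound 1 (-0.18 and -0.42) and slightly above it in profound 2 (0.11 and 0.03). TM7SF2, a sterol C14-reductase that shares its step with the lamin B receptor, was above control in all 3 RUNX1 hairpin arrays, at 4.09, 4.09 and 4.19 against 3.85.

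**Figure D2:**
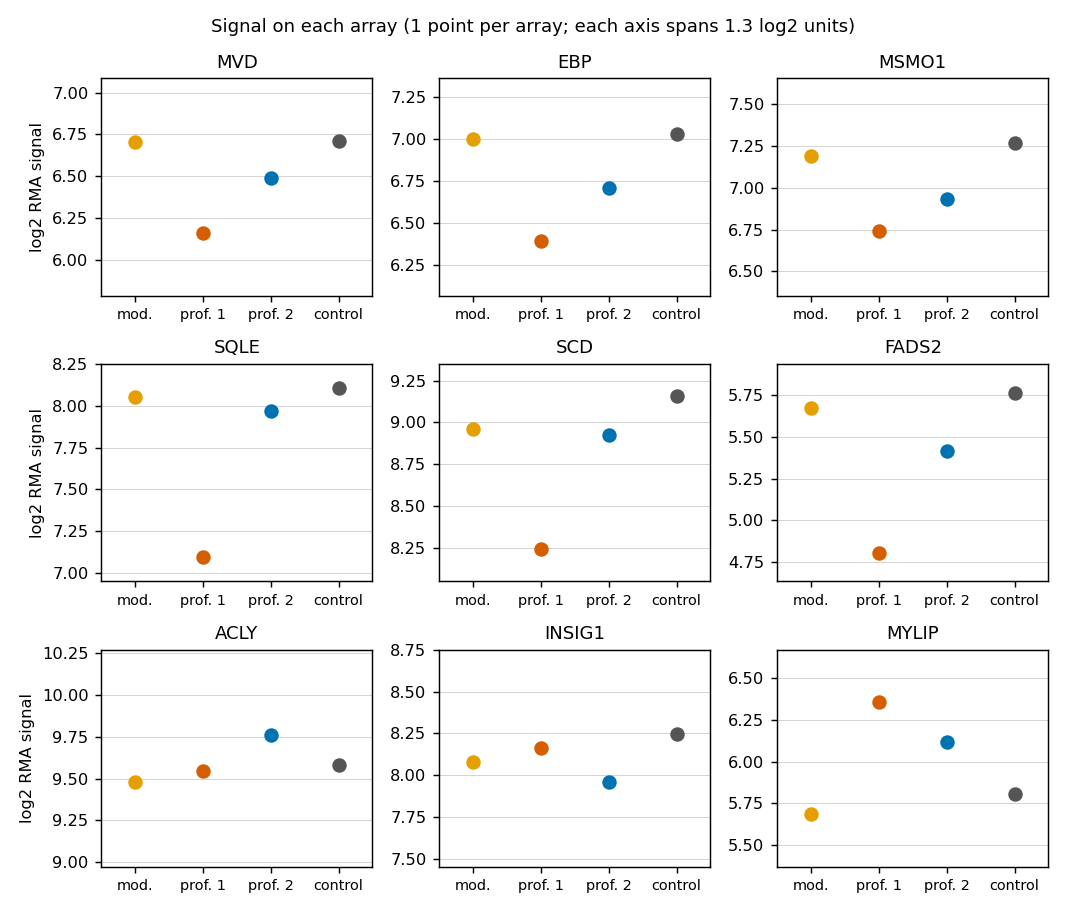
Log2 RMA signal of 9 genes on the 4 arrays, 1 point per array, with a panel per gene and axes of equal span. MVD, EBP, MSMO1 and FADS2 are lowest in profound 1 and next lowest in profound 2, SQLE and SCD are low mainly in profound 1, ACLY and INSIG1 show no such order, and MYLIP runs the other way.

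Promoter sequences of 6 genes are shown because these genes span the patterns above: MSMO1, EBP and FADS2 lay furthest below control in both profound arrays among genes above the table median, HMGCS1 hardly differed, INSIG1 did not share the order of the enzymes, and SREBF2 holds the sterol element. FADS2 and HMGCS1 each have 2 listed starts, and the window shown is the one with a motif match, since the other has none. Each run covers 300 bases, 250 before to 50 after the transcription start, 5′ to 3′ on the gene's strand, from RefSeq on GRCh38.p14. Capitals mark motif matches on either strand: CCAAT, read as ATTGG on the other strand and bound by NF-Y, a factor that acts with SREBPs at sterol genes, and the sterol regulatory element TCACNCCAC. The RUNX core TGTGGT was searched too and is in none of these windows.
MSMO1 (chr4:165327419-165327718, plus strand): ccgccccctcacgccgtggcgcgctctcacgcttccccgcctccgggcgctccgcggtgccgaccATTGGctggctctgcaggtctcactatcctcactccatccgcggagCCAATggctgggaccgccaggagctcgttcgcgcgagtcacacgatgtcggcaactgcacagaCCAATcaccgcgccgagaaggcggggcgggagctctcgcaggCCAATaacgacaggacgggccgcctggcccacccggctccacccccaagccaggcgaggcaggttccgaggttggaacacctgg
EBP (chrX:48521558-48521857, plus strand): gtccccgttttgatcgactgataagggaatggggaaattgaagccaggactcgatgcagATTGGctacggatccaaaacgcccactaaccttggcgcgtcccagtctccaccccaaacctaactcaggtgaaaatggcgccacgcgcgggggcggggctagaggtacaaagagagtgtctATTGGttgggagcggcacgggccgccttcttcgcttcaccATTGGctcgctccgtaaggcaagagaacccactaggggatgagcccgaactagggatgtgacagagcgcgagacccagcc
FADS2 (chr11:61816154-61816453, plus strand, the downstream of 2 listed starts): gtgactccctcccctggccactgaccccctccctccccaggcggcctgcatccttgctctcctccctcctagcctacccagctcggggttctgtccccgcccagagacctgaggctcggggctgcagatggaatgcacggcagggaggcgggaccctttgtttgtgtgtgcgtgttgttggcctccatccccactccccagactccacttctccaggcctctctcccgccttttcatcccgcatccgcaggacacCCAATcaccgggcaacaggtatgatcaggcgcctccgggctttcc
HMGCS1 (chr5:43313363-43313662, minus strand, the upstream of 2 listed starts): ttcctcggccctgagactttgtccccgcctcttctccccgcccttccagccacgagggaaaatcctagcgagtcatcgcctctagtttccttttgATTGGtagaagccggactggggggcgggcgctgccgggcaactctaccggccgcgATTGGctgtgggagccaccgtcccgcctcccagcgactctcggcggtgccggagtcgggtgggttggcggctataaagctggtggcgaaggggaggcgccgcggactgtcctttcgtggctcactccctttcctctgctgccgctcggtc
INSIG1 (chr7:155297628-155297927, plus strand): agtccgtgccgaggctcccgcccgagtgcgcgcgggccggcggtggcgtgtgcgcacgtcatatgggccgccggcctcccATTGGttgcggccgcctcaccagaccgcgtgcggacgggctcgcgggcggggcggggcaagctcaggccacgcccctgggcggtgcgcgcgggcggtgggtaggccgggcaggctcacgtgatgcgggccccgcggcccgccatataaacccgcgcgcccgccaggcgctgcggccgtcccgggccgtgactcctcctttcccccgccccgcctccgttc
SREBF2 (chr22:41832855-41833154, plus strand): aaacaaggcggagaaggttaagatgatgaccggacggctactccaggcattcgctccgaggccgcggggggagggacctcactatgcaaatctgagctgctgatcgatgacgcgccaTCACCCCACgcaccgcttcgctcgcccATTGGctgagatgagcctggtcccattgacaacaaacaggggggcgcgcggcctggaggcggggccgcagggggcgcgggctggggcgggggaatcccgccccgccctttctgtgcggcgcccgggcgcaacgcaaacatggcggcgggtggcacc

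The MSMO1 window holds 4 CCAAT boxes, beginning 185, 139, 76 and 34 bases before the start, and that of EBP 3, at 191, 70 and 30 bases before it. HMGCS1 has 2, at 155 and 100 bases before the start, although its signal hardly differed between arrays. FADS2 has 1, which begins 6 bases into the transcript, and INSIG1 has 1, at 170 bases before the start. SREBF2, whose product activates sterol genes, has the sterol element 133 and a CCAAT box 106 bases before the start.

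RefSeq promoter windows were found for 33 of the 38 genes, which are not the same 33 that passed the filter. ACAT2, SQLE, FASN, ABCG1 and FDFT1 have no window here, while CYP51A1, FADS1 and NPC2 are included. A CCAAT box was in at least 1 window of 24 of these 33 (72.7%), against 42.1% of 15843 protein-coding genes. It was in 8 of 9 sterol step genes, 6 of 7 early mevalonate genes, 4 of 6 fatty acid genes and 3 of 6 SREBP control genes. Some genes have several listed starts, and by window the shares were 57.1% of 49 for the pathway and 34.6% of 35116 in all. The sterol element was in 1 of 33 genes (3.03%), against 1.51% of protein-coding genes, and the RUNX core in 8 of 33 (24.2%), against 14.5%. By window, the RUNX core was in 16.3% of the 49, against 13.1% of all windows, so the shares were closer. The genes with a RUNX core were GGPS1, IDI1, LSS, MVD, NPC2, NR1H3, SCAP and SCD. A match is a description of these windows and not a binding site.

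The fatty acid genes divided into strongly and weakly differing ones. SCD, the stearoyl-CoA desaturase that makes oleate, read 8.96 in moderate, 8.24 in profound 1 and 8.92 in profound 2, against 9.16 in control. SCD was 1.89-fold lower than control in profound 1 (-0.92, the 0.711th percentile of tested genes), and its differences in profound 2 and moderate were -0.24 and -0.20. FADS2, the delta-6 desaturase of polyunsaturated fatty acids, read 5.67, 4.81 and 5.41 against 5.76 in control, and was 1.94-fold lower in profound 1 (-0.96) and 1.27-fold lower in profound 2 (-0.35). FADS1, the delta-5 desaturase next to FADS2 on chromosome 11, shares its probe set with the microRNA gene MIR1908.

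That shared FADS1 probe set read 6.56 in moderate, 5.75 in profound 1 and 6.63 in profound 2, against 6.85 in control, 2.14-fold lower in profound 1. All measured desaturases of this group were thus far below control in profound 1. FASN, the fatty acid synthase, read 7.86 in moderate, 7.31 in profound 1 and 7.86 in profound 2, against 7.90 in control. Its difference of -0.58 in profound 1 lay just short of 1.5-fold, and its differences in moderate and profound 2 were -0.04 each. ACACA, the acetyl-CoA carboxylase that supplies FASN, read 7.12, 6.72 and 7.06 against 7.20 in control.

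ACLY and ELOVL6 stood apart from these genes. ACLY, the citrate lyase that provides cytosolic acetyl-CoA to both pathways, read 9.48 in moderate, 9.54 in profound 1 and 9.76 in profound 2, against 9.58 in control, so that profound 2 was above control by 0.18 and profound 1 level with it. ELOVL6, an elongase of saturated chains, read 5.12, 4.57 and 4.61 against 4.76 in control. ELOVL6 was the 1 gene of the 33 above control by at least 0.32 log2 units in moderate (0.36), and against that array its differences were -0.54 in profound 1 and -0.51 in profound 2.

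Of the 6 SREBP control genes, 6 were below control in moderate, 4 in profound 1 and 3 in profound 2, with medians of -0.05, -0.20 and -0.05. Over all tested genes, 48.1%, 50.5% and 50.3% were below control in these arrays, so the counts in both profound arrays were near that share. At 0.32 log2 units 2 of 6 were lower in profound 1, SREBF1 and STARD4 (13.2% of all tested genes). SREBF2 (-0.318) lay just short of the exact size of 0.322. SREBF1, whose product favours fatty acid genes, read 5.01 in moderate, 4.76 in profound 1 and 5.31 in profound 2, against 5.30 in control. Its differences were -0.54 in profound 1 and -0.29 in moderate, and profound 2 was level with control. SREBF2, whose product favours sterol genes, read 7.60, 7.32 and 7.53 against 7.64 in control. Its differences of -0.32 and -0.10 in profound 1 and profound 2 had the order of the sterol enzymes.

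SCAP, the escort of the SREBPs, lay between 7.14 and 7.20 on all 4 arrays. INSIG1, itself an SREBP target and a retention factor, read 8.08 in moderate, 8.16 in profound 1 and 7.96 in profound 2, against 8.25 in control. INSIG1 was closest to control in profound 1 (-0.08), the array in which the enzymes were furthest from it. INSIG2, the second retention factor, was above control in both profound arrays, at 6.78 and 6.68 against 6.56, and read 6.50 in moderate. STARD4, a cytosolic sterol carrier, had the order of the enzymes, with 4.67 in moderate, 4.19 in profound 1 and 4.41 in profound 2, against 4.72 in control.

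Among the LXR and export genes, MYLIP was the 1 gene of the 33 above control by at least 0.32 log2 units in profound 1. MYLIP encodes a ubiquitin ligase that marks lipoprotein receptors for degradation. It read 5.69 in moderate, 6.35 in profound 1 and 6.12 in profound 2, against 5.81 in control. Its differences of 0.55 and 0.31 stood at the 96.6th and 92.2nd percentiles of tested genes in profound 1 and profound 2, and profound 1 was 1.46-fold above control. Against moderate, MYLIP was higher by 0.67 and 0.43, which made it the 1 gene of the 33 past 1.5-fold on the higher side in profound 1 against moderate (1.65% of all tested genes).

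The class also holds NR1H3, ABCA1 and ABCG1. NR1H3, the LXR-alpha gene, read 3.97 in moderate, 4.26 in profound 1 and 4.10 in profound 2, against 4.08 in control, within its robust SD of 0.23. ABCA1, an LXR target that loads cholesterol onto apolipoproteins, read 4.05, 4.29 and 4.23 against 4.30 in control, so that moderate was the low array. ABCG1, another LXR-driven exporter, read 2.79, 2.86 and 2.98 against 2.60 in control. ABCG1 was thus above control by 0.26 in profound 1 and 0.38 in profound 2, on a probe set below the table median on every array. Of the genes that release cholesterol from lysosomes, NPC1 read 6.33, 6.23 and 6.12 against 6.36 in control, and NPC2, on a probe set shared with MIR4709, read 8.13, 8.15 and 7.87 against 7.84.

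The 3 comparisons with control share the control array, so differences of the profound arrays were also taken over pairs with no array in common. With profound 1 set against control and profound 2 against moderate, 13 of 17 mevalonate and sterol step genes were below 0 in both pairs, and 21 of all 33 genes were, against 26.7% of tested genes. With the pairs exchanged (profound 1 against moderate, profound 2 against control), 14 of 17 and 22 of 33 were, against 29.2% of tested genes. At the smaller size, 1 of the 17 genes was lower in both pairs of the first pairing (1.39% of tested genes). With the pairs exchanged, 3 of 17 were (1.73%): MSMO1, EBP and HSD17B7. HSD17B7, also among the genes below 0 in both pairs of either pairing, passed the filter through the control array alone. Its place in these counts therefore follows in part from the filter. Profound 2 against moderate had a median of -0.18 for the 17 genes, close to its median of -0.19 against control. For the 9 sterol step genes alone, the median was -0.08 against moderate, with 6 below 0, and -0.13 against control. At 1.5-fold against moderate, 4 of 33 genes were lower in profound 1 (3.49% of tested genes) and 0 were lower or higher in profound 2 (1.60% and 1.04%). By any amount, 26 of 33 were below moderate in profound 1 and 22 in profound 2 (51.8% and 52.4% of tested genes). All 8 early mevalonate genes were below moderate in profound 2, with GGPS1 furthest (-0.40). The fatty acid genes were less uniform there, with a median of -0.05 and 4 of 6 below moderate.

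**Figure D3:**
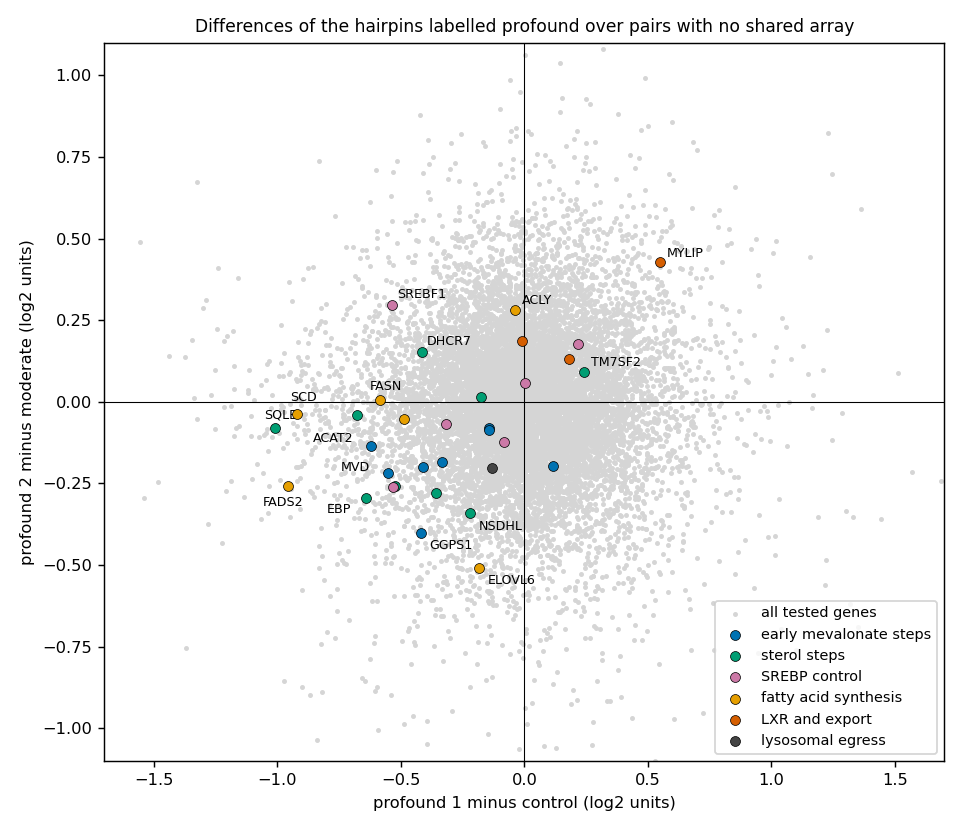
Difference of profound 1 from control (horizontal) against that of profound 2 from moderate (vertical), in log2 units, for all tested genes (grey) and the 33 genes that passed the filter (coloured by role); genes beyond the axes are not drawn. Most blue and green points lie at the lower left, SREBF1 (-0.54 and 0.30) and DHCR7 (-0.42 and 0.15) lie above it, and MYLIP (0.55 and 0.43) lies at the upper right.

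Set directly against profound 2, profound 1 was lower for 25 of the 33 genes (51.1% of all tested genes), with a median of -0.21. At 1.5-fold 3 of the 33 were lower, SQLE (-0.87), SCD (-0.68) and FADS2 (-0.61), where 2.95% of tested genes were, and 0 were higher (2.06%). FASN (-0.55), SREBF1 (-0.54) and DHCR7 (-0.45) followed. The early mevalonate genes differed less between both profound arrays, with a median of -0.14 against -0.28 for the sterol steps and -0.45 for fatty acid genes. INSIG1 (0.21), NSDHL (0.16) and MYLIP (0.24) were above profound 2 in profound 1.

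Proliferation genes were lower in profound 1 too, and their part in the result was not tested. All 16 listed proliferation genes were below control in profound 1, 14 of them at 1.5-fold (50.5% and 4.04% of all tested genes). Their median was -0.87, with a range from -1.55 to -0.52. In profound 2 their median against control was -0.18, close to that of the sterol genes there, and in moderate it was -0.19, where the sterol genes had a median of -0.00. Against moderate, the proliferation genes of profound 2 had a median of 0.02 with 6 of 16 below 0. The 17 mevalonate and sterol genes had a median of -0.18 there with 14 below 0, and the 9 sterol step genes alone one of -0.08. With 1 array per hairpin, these values do not separate the lipid genes from proliferation.

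**Figure D4:**
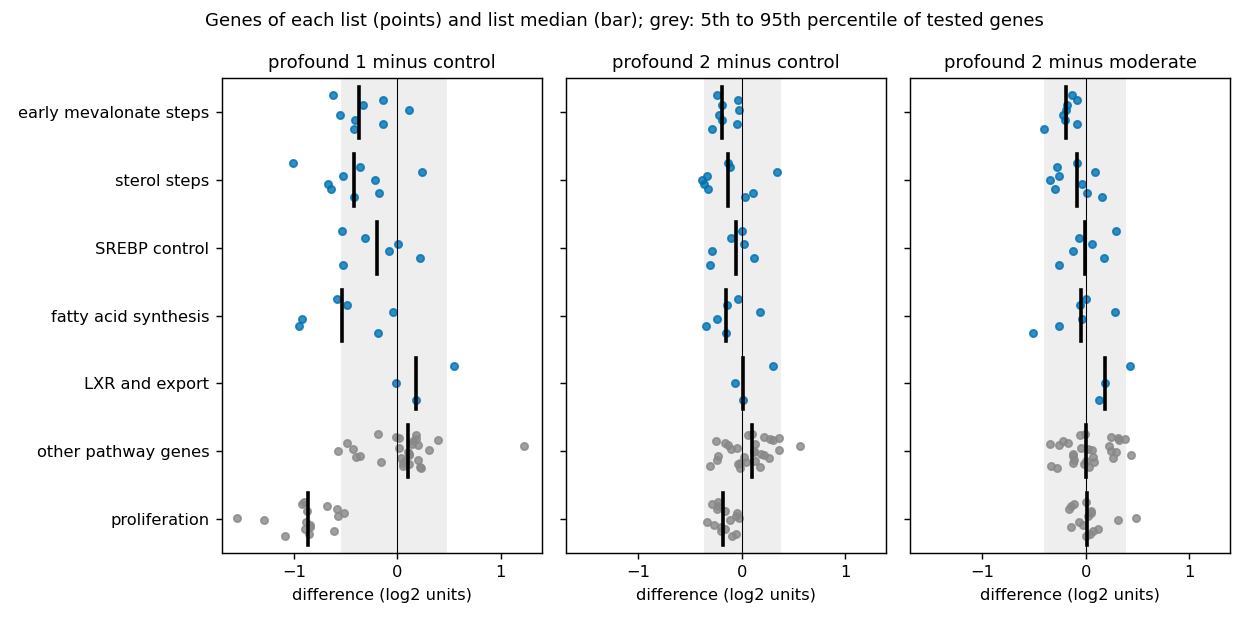
Differences in log2 units of the genes of each list (points) with the list's median (bar), for profound 1 against control, profound 2 against control and profound 2 against moderate; the grey band spans the 5th to 95th percentile of all tested genes. The median of the proliferation genes is -0.87 in the first panel and 0.02 in the last. In the last panel the medians of the early mevalonate and sterol step genes are -0.19 and -0.08.

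Other genes of lipid metabolism that are not among the 38 did not share the lower values as a group, though single genes did. Of 35 listed, 29 were measured and passed the filter, with medians of 0.10 in profound 1 and 0.10 in profound 2 against control. Below control were 8 and 11 of 29 (50.5% and 50.3% of all tested genes). At 1.5-fold 0 were lower and 1 was higher in profound 1 (4.04% and 2.68% of all tested genes). In profound 2, 0 were lower or higher (1.01% and 1.20%). With 29 genes, these 1.5-fold counts do not stand apart from the shares. The gene higher at 1.5-fold was ME1, a cytosolic malic enzyme that supplies NADPH for lipid synthesis. ME1 read 4.50 in moderate, 5.38 in profound 1 and 4.72 in profound 2, against 4.16 in control. It was above control in all 3 RUNX1 hairpin arrays, by 0.35, 1.23 and 0.57.

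Within that list, profound 1 was lowest and profound 2 next lowest for 2 of 29 genes, TMEM97 and LRP8 (12.8% of all tested genes). Both profound arrays lay above both others for 7 of 29, ME1 and ACSS2 among them (17.6% of all tested genes). TMEM97, a sterol-responsive membrane protein gene, read 8.05 in moderate, 7.56 in profound 1 and 7.88 in profound 2, against 8.04 in control. FABP5, a fatty acid carrier gene, was lower in profound 1 alone of the 3 RUNX1 hairpin arrays to a comparable extent, at 4.86 there, with 5.31 in moderate, 5.55 in profound 2 and 5.43 in control. ACSS2, which makes acetyl-CoA from acetate and is an SREBP target, was above control in both profound arrays by 0.40 and 0.30. The SREBP protease genes MBTPS1 and MBTPS2 were above control by 0.36 and 0.27 in profound 2, and by 0.01 and 0.18 in profound 1. The receptor genes LRP8 and VLDLR lay below control in profound 1 (-0.37 and -0.40), and in profound 2 their differences were -0.23 and 0.02.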

How the data were processed

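Values are the deposited log2 signals of 53617 probe sets on 4 arrays, which the authors made with RMA. The tools listed in the submitters' processing notes are Transcriptome Analysis Console 1.0 and Affymetrix Expression Console 1.3.1. Background correction, quantile normalisation and probe summary are the steps of RMA, so a change shared by most genes cannot be seen and dim probe sets are drawn together. The sources used here give neither its settings nor a genome build. Groups follow the genotype field, and all value columns were used (0 unused).

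Symbols came from the platform annotation, updated through the RefSeq table of GRCh38.p14. Of the probe sets, 23871 have 1 symbol, 1842 several and 27904 none listed. Tested genes were protein-coding with a signal above the table median (3.08) in at least 1 array (12521). No member had more than 1 probe set of its own (0 of 38). Differences were taken with pandas 2.3.3 and numpy 2.4.6 in Python 3.11.15, and cyclic loess with limma 3.58.1 in R 4.3.3. No statistical test was made.

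The genes, lists, motifs and thresholds were chosen with earlier results of these data known. Named genes are all members, RUNX1, and of the other lists up to 3 genes with the largest differences per comparison. LRP8, VLDLR and ACSS2, the promoter of SREBF2, the choice between 2 promoter windows of a gene and the count of array orders fall outside this rule and were chosen after their values were seen. Alternatives were other filters, normalisations, probe set summaries, fold sizes, the mean in place of the median, and moderate in place of control.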

Additional observations from a re-analysis of the deposited data

How the results depend on the processing

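Median differences of 5 gene classes against control were recomputed under up to 8 alternatives. Of 115 values, 112 moved by less than the robust SD of 0.17 and 3 by more. This count is a weak check. No gene had more than 1 probe set of its own, so the probe set summary could not change any value. The limit of 0.17 is also larger than several of the medians, such as -0.13 for sterol steps and -0.15 for fatty acid genes in profound 2. For these the ranges below say more. For LXR and export genes a 75th-percentile filter, which leaves MYLIP alone, gave 0.55 in profound 1 and 0.31 in profound 2, in place of 0.18 and 0.02, and the array labelled moderate as reference gave 0.19 in profound 2. Early mevalonate medians stayed between -0.38 and -0.31 in profound 1 and between -0.19 and -0.15 in profound 2, sterol step medians between -0.42 and -0.35 and between -0.13 and -0.08, fatty acid medians between -0.58 and -0.53 and between -0.15 and -0.05, and SREBP control medians between -0.21 and -0.08 and between -0.09 and 0.00.

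Of 48 recomputed counts of genes past the size rule, 42 stayed within 1.5 times, and the 6 that did not came from another fold size. This count is a weak check too, since most of the 42 were 0 and stayed at 0. In profound 1, 17 of the 33 genes were lower at 0.32 log2 units and 1 at 2-fold, in place of 6, and 1 was higher at 0.32 log2 units. In profound 2, 5 were lower and 1 higher at 0.32 log2 units, and in moderate 1 was higher, in place of 0. With the filter on the mean level, chosen for these counts after seeing the data, 16 and 4 of 32 genes were lower at 0.32 log2 units in profound 1 and profound 2, and 22 were below control in both. Searching the gene's strand alone left a CCAAT box in 33.3% of the 33 genes with a promoter window (24.5% of protein-coding genes) and a RUNX core in 21.2% (8.48%). No paired analysis was possible because each hairpin has 1 array and the shared replicate number is 1, and no array could be left out for the same reason.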
